A study of Mus musculus with 6 samples.

Results

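The 52 genes described here encode nucleolar proteins and factors that assemble the cytosolic ribosome. They were picked by name from the 47643 rows of an RNA-seq table, and each name matched 1 row. The cells are leukaemic GMP (L-GMP), a sorted leukaemia population named after the granulocyte-monocyte progenitor, and the 6 libraries came from C57BL/6 mice. Of these, 3 are labelled as double knockout for Prkaa1 and Prkaa2 (KO), which encode the alternative catalytic subunits of the energy sensor AMPK, and 3 are labelled wild type (WT). The labels give neither how the leukaemia was induced, nor how or in which cells the alleles were deleted, nor the age and number of mice. Nothing in them says that replicates came from separate animals, so the p-values rest on the spread among 3 libraries of a genotype, part or all of which may be technical.

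Ribosomes are built in the nucleolus. RNA polymerase I makes a long precursor of ribosomal RNA, small nucleolar ribonucleoproteins (snoRNPs) modify it at positions chosen by guide RNAs, the small-subunit processome folds and cuts the part that becomes the 40S subunit, and a separate chain of pre-60S particles matures the large subunit. The factors are not part of the finished ribosome. Growing progenitor and leukaemia cells make many ribosomes, and MYC is a known activator of these genes. The 52 members were grouped by role into 9 snoRNP factors, 20 small-subunit factors, 19 large-subunit factors and 4 general nucleolar proteins.

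The values are FPKM as deposited, read numbers per kilobase of gene and scaled by library, so that levels can be compared between genes. The 9108 genes that averaged 1 FPKM or more were tested with limma on log2(FPKM + 1), where the added 1 shrinks the fold change of low genes, and a gene is called lower or higher where the p adjusted over all of them was under 0.05. Recovered whole reads numbered 12372343 to 14025385 in KO libraries and 11390343 to 16415932 in WT libraries. The FPKM values summed to 649611 to 653819 in KO and to 463683 to 475654 in WT libraries, and the 10 most abundant genes held 31.3 to 31.9% of the sum in KO and 10.5 to 10.7% in WT. Prkaa1 had 1.11, 0.735 and 0.548 FPKM in KO libraries, against 2.01, 2.20 and 1.80 in WT libraries (adjusted p = 0.00112, limma). Prkaa2 was at 0, 0.0220 and 0.0194 FPKM in KO and 0, 0 and 0.0178 in WT libraries, from 4 and 2 reads, so its loss was not detectable at this depth. The values sum all exons, and the deleted exons are not named.

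Markers of the labelled cell type differed in both directions between KO and WT. Cd34 had 3.51 ± 0.157 FPKM in KO and 27.8 ± 0.840 in WT, Fcgr3 had 66.8 ± 4.48 and 129 ± 2.34, and Flt3 was listed at 0 in the 3 KO libraries against 1.32 to 1.62 FPKM in WT libraries. Kit was at 1.43 ± 0.0243 FPKM in KO and 0.250 ± 0.0654 in WT (SD, n = 3 each). Of the 12 progenitor markers, 9 were tested, and 5 were higher in KO and 4 lower. Among the higher ones, Elane had 7923 ± 106 FPKM in KO and 1758 ± 54.7 in WT. Prtn3 had 2056 ± 28.3 and 472 ± 11.3, and Mpo had 442 ± 4.88 and 159 ± 1.93. Ctsg and Cebpa were also called higher, but Ctsg was lower under rescaled library sums and quantile normalization, and Cebpa did not pass under rescaled sums. The 12 summed to 17073 to 17383 FPKM in KO libraries and 8266 to 8585 in WT libraries. The part of these marker differences in the results below was not tested.

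Ribosome biogenesis genes fell together in KO L-GMP, in every role. Of the 52 members, 50 passed the minimum of 1 FPKM, and 49 of these were lower in KO and 1 (Imp3) did not pass the test. By limma, 0 were higher, also at an unadjusted p under 0.05 and by limma-voom on recovered reads. For comparison, 40.4% of the 9108 tested genes were lower and 38.0% were higher. The median log2 change was -1.32 over the tested members and -0.02 over all tested genes. In 51 of the 52 members each KO library lay below each WT library, which held for 41.6% of tested genes (the opposite held for 39.1%). The KO mean was under 50% of the WT mean in 42 members, against 17.9% of tested genes. By role, 9 of 9 tested snoRNP factors, 18 of 19 small-subunit factors, 18 of 18 large-subunit factors and 4 of 4 general nucleolar proteins fell, with median log2 changes of -1.48, -1.21, -1.32 and -1.62. These are bulk libraries, in which fewer cells that express a gene and less RNA per cell cannot be told apart.

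**Figure D1:**
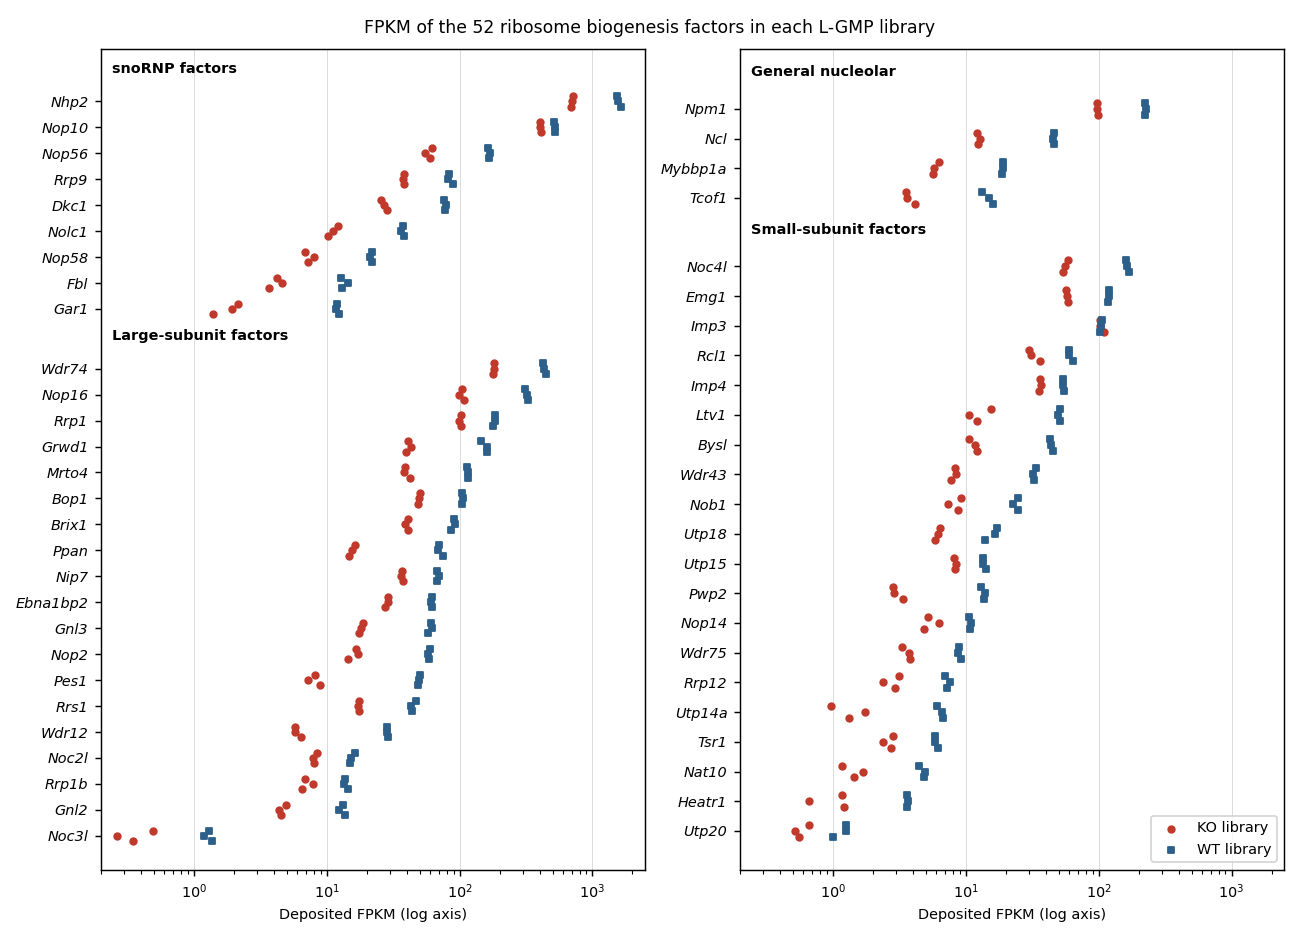
Deposited FPKM on a log axis for each of the 52 members, by role, with 1 point for each of the 3 KO (circles) and 3 WT (squares) libraries. KO points lie left of WT points in 51 members, and the points of Imp3 coincide.

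Summed over all 52 members, expression was 2476, 2448 and 2466 FPKM in KO libraries and 5355, 5439 and 5537 in WT libraries. KO thus held 45.3% of the WT sum, and the groups did not overlap (exact two-sided permutation p = 0.1, the smallest that 3 against 3 libraries can give). As a share of all FPKM of a library, the members made up 0.374 to 0.381% in KO and 1.16% in each WT library, to 3 digits. The total FPKM was larger in KO libraries, as given above, which lowers the KO share as well. The 19 large-subunit factors kept the smallest part of their sum, 723 ± 7.19 FPKM in KO and 1891 ± 20.1 in WT, or 38.2%. The 4 general nucleolar proteins kept 39.5%, 120 ± 1.04 against 304 ± 2.63 FPKM, and the small-subunit factors kept 48.8%, 364 ± 5.82 against 746 ± 6.35 FPKM. Of the small-subunit sum, the unchanged Imp3 made up 105 ± 4.13 FPKM in KO and 104 ± 2.55 in WT, which raises the share kept. The snoRNP sum, of which Nhp2 and Nop10 make up the most, was 1256 ± 7.81 FPKM in KO and 2502 ± 67.3 in WT, or 50.2% (SD, n = 3 each).

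With libraries rescaled to equal FPKM sums, the median log2 change was -1.76 over the members and -0.43 over all tested genes. All 50 tested members were then lower, Imp3 included (log2 change -0.45), while the share of higher genes among all called genes was 26.8%, against 48.5% as deposited.

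Among the 4 general nucleolar proteins, Npm1 (nucleophosmin), a chaperone of histones and ribosomal proteins (chr11:33152287-33163206, minus strand, GRCm38), had 96.9, 98.0 and 98.9 FPKM in KO and 224, 228 and 222 FPKM in WT libraries. Ncl (nucleolin), an RNA-binding protein of the nucleolus (chr1:86344719-86359400, minus strand), had 12.2, 12.9 and 12.3 FPKM in KO and 45.9, 45.5 and 46.1 FPKM in WT libraries. In both, the 3 KO values lay within a narrow band far under WT, and KO held 43.6% of the WT mean of Npm1 and 27.2% of that of Ncl (log2 change -1.19, SE 0.02, and -1.80, SE 0.04, limma adjusted p = 1.35e-08 and 2.13e-08). Npm1 has many processed pseudogenes, and the treatment of multimapped reads is not given in the sources used here, and its level is uncertain. Tcof1 (treacle), which links RNA polymerase I to early rRNA modification, had 3.56, 3.63 and 4.12 FPKM in KO and 13.3, 15.0 and 15.9 FPKM in WT libraries. Mybbp1a, a nucleolar regulator of rRNA gene transcription, had 6.26, 5.79 and 5.67 FPKM in KO and 19.0, 19.0 and 18.7 FPKM in WT libraries. Neither gene's groups overlapped, and the log2 changes were -1.72 (SE 0.08) and -1.53 (SE 0.05).

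In the box C/D snoRNP, which methylates the ribose of rRNA, all core proteins fell. Fbl (fibrillarin), the methyltransferase, had 4.23, 4.63 and 3.65 FPKM in KO and 12.7, 14.4 and 13.004 FPKM in WT libraries. Nop56, a scaffold of the particle, had 61.7, 55.1 and 59.8 FPKM in KO and 165, 169 and 167 FPKM in WT libraries. Its partner Nop58 had 6.83, 7.97 and 7.22 FPKM in KO and 21.8, 21.1 and 21.8 FPKM in WT libraries. KO held 31.2% of the WT mean of Fbl, 35.2% of that of Nop56 and 34.1% of that of Nop58. The remaining core protein, Nhp2l1, which binds the guide RNA and is not among the 52 members, fell less, with 43.6 ± 1.68 FPKM in KO and 77.8 ± 3.18 in WT, or 56.1% (SD, n = 3 each, log2 change -0.82). The FPKM ratio of Nop56 to Fbl was 11.9 to 16.4 in KO libraries and 11.74 to 12.97 in WT libraries, ranges that overlap. Rrp9, the protein specific to the U3 snoRNP that starts small-subunit processing, had 37.7 ± 0.405 FPKM in KO and 84.5 ± 3.75 in WT (SD, n = 3 each, log2 change -1.14). Nolc1, a chaperone that carries snoRNPs between the nucleolus and Cajal bodies, had 12.05, 11.1 and 10.2 FPKM in KO and 37.7, 36.2 and 38.3 FPKM in WT libraries, a log2 change of -1.67.

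The box H/ACA snoRNP, which turns uridine into pseudouridine, also fell in all core proteins. Gar1, the outer core protein of the particle (chr3:129824912-129831396, minus strand), had 2.14, 1.94 and 1.40 FPKM in KO and 12.03, 11.8 and 12.4 FPKM in WT libraries. That is 15.1% of the WT mean, the lowest share among the 52 members, from 116 reads in KO and 928 in WT (log2 change -2.22, SE 0.11, limma adjusted p = 9.95e-07). Dkc1 (dyskerin), the pseudouridine synthase, had 25.6, 26.8 and 28.4 FPKM in KO and 76.2, 78.4 and 77.1 FPKM in WT libraries. Nhp2, the most abundant of the 52 members, had 715, 702 and 689.7 FPKM in KO and 1524, 1557 and 1629 FPKM in WT libraries. Nop10, a small core protein (chr2:112261926-112263269, plus strand), had 399, 406 and 412 FPKM in KO and 509, 521 and 527 FPKM in WT libraries. Nop10 thus fell least of the called members (78.2% of WT, log2 change -0.35, SE 0.02, adjusted p = 3.24e-06), although its groups did not overlap. The FPKM ratio of Nop10 to Gar1, which does not depend on library scaling, was 186.3, 208.6 and 294.6 in KO libraries and 42.3, 44.0 and 42.6 in WT libraries. This pair and the ratios below were picked as the least and the most reduced subunit of a complex, so they are descriptions without a test.

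**Figure D2:**
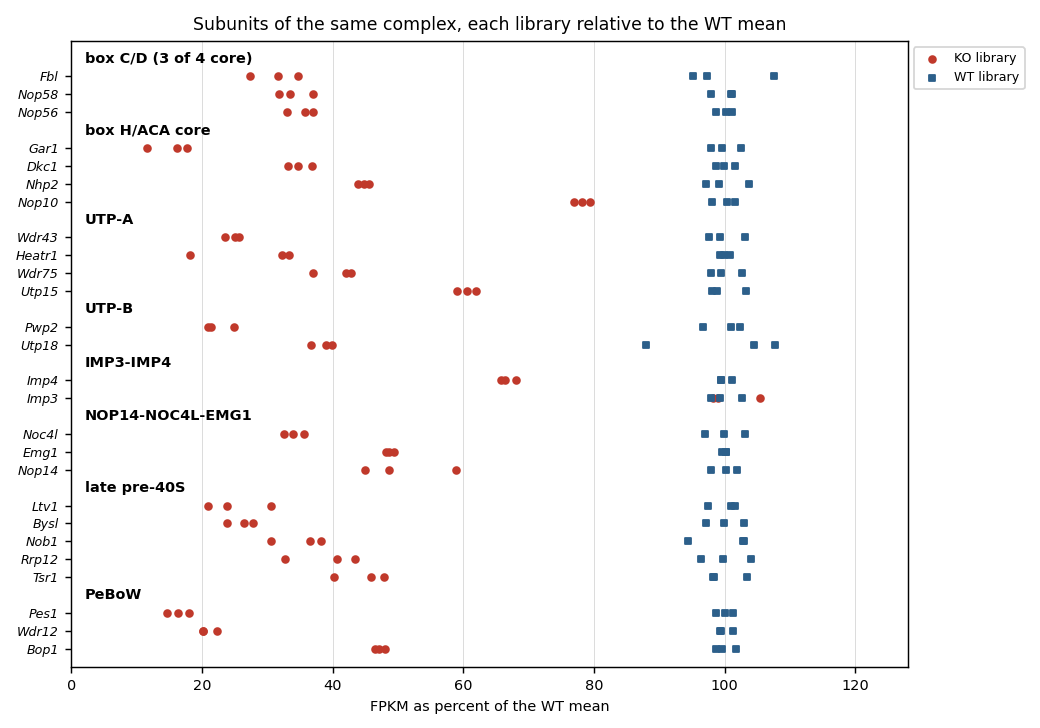
FPKM of each library as a percent of the WT mean of the same gene, for subunits of 8 complexes or stages, with KO libraries as circles and WT libraries as squares. In KO means, Fbl, Nop56 and Nop58 of box C/D, whose core protein Nhp2l1 is not plotted, lie at 31.2 to 35.2%, the 4 box H/ACA core proteins at 15.1 to 78.2% and the PeBoW subunits at 16.3 to 47.2%.

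Small-subunit factors fell in 18 of 19 tested cases. In the UTP-A subcomplex, which binds the nascent precursor first, Wdr43 had 8.23, 8.42 and 7.73 FPKM in KO and 33.9, 32.05 and 32.6 FPKM in WT libraries, 24.7% of the WT mean. Utp15, of the same subcomplex, had 8.08, 8.49 and 8.30 FPKM in KO and 13.5, 13.4 and 14.1 FPKM in WT libraries, 60.5% of the WT mean. The ratio of Utp15 to Wdr43 was 0.983 to 1.07 in KO libraries and 0.399 to 0.434 in WT libraries, without overlap. Heatr1 and Wdr75, also of UTP-A, stood at 27.9% and 40.6%. Of UTP-B, Pwp2 stood at 22.4% and Utp18 at 38.5%. Utp14a, which takes part in the release of U3 from the precursor, was at 20.7% of WT, the lowest of the small-subunit factors, with 1.34 ± 0.389 FPKM in KO and 6.48 ± 0.376 in WT from 203 and 1206 reads.

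Imp3 and Imp4, which pair U3 with the precursor rRNA, were the least changed small-subunit factors. Imp3 (chr9:56937475-56938398, plus strand) had 102, 103 and 109.6 FPKM in KO and 107, 103 and 102 FPKM in WT libraries. These values interleave, and the log2 change was 0.01 (SE 0.04, limma adjusted p = 0.781). Its sign was negative under 4 alternative settings, of which only the rescaling to equal sums gave a call. Imp4 had 36.05, 37.0 and 35.7 FPKM in KO and 54.0, 54.0 and 54.9 FPKM in WT libraries, which did not overlap (log2 change -0.57, SE 0.03, adjusted p = 1.79e-06). The ratio of Imp3 to Imp4 was 2.78 to 3.07 in KO libraries and 1.85 to 1.98 in WT libraries.

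Noc4l, a partner of Nop14 in the processome, had 58.5, 56.0 and 53.7 FPKM in KO and 160, 165 and 169.7 FPKM in WT libraries, and it was the most abundant small-subunit factor by mean level. Emg1, which methylates a pseudouridine of 18S rRNA, had 57.1, 57.7 and 58.6 FPKM in KO and 119, 119 and 118 FPKM in WT libraries. Both sets of values are tight and far apart, with log2 changes of -1.54 and -1.03. Nop14 itself stood at 50.8% of WT, Rcl1 (linked to cleavage of the precursor) at 53.0% and Nat10, the RNA cytidine acetyltransferase, at 30.3%.

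Late factors that travel with the pre-40S particle fell as well. Ltv1, an assembly factor that leaves the particle in the cytoplasm, had 15.5, 10.6 and 12.1 FPKM in KO and 51.6, 49.5 and 51.3 FPKM in WT libraries. Bysl (bystin) had 10.5, 11.6 and 12.2 FPKM in KO and 42.7, 43.9 and 45.2 FPKM in WT libraries. The log2 changes were -1.93 (SE 0.12) for Ltv1 and -1.86 (SE 0.06) for Bysl, and the KO values of Ltv1 spread more than those of Bysl. Nob1, the nuclease that makes the final cut of 18S rRNA, stood at 35.0%, Rrp12 at 38.9% and Tsr1 at 44.7% of WT. Tsr1 shares 32.3% of its exonic bases with Srr on the opposite strand, and the sources used here do not say whether reads were counted by strand, so its value is uncertain. Utp20, a very large processome protein, had 0.655, 0.517 and 0.551 FPKM in KO and 1.256, 1.251 and 1.004 FPKM in WT libraries, without overlap, and lay under the minimum for the test.

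Large-subunit factors fell in 18 of 18 tested cases. Pes1 (pescadillo) belongs to the PeBoW complex, which is required for processing of the 28S and 5.8S precursors. It lies at chr11:3963975-3980004 on the plus strand and had 8.09, 7.28 and 8.92 FPKM in KO and 50.2, 49.6 and 48.9 FPKM in WT libraries. Its log2 change was -2.48 (SE 0.07, limma adjusted p = 6.65e-08), and KO held 16.3% of WT. On this scale no other member changed more, but Gar1 did with a pseudocount of 0.1 (-2.68, against -2.60 for Pes1) and by limma-voom (-2.73, against -2.61). Wdr12, of the same complex, had 5.79, 5.80 and 6.401 FPKM in KO and 28.6, 28.6 and 29.1 FPKM in WT libraries. Bop1, the third subunit, had 50.4, 49.3 and 48.8 FPKM in KO and 104, 107 and 104 FPKM in WT libraries. Bop1 thus kept 47.2% of its WT level and Wdr12 20.9%, and the ratio of Bop1 to Pes1 was 6.22, 6.78 and 5.47 in KO libraries and 2.08, 2.15 and 2.12 in WT libraries.

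Ppan, an early pre-60S factor, had 16.3, 15.6 and 14.6 FPKM in KO and 70.3, 69.0 and 74.4 FPKM in WT libraries (log2 change -2.13, SE 0.05, limma adjusted p = 3.53e-08). The 2 most abundant large-subunit factors were Wdr74, with 183, 182 and 179 FPKM in KO and 424, 433 and 449 FPKM in WT libraries, and Nop16, with 104, 98.4 and 108 FPKM in KO and 313, 324 and 325 FPKM in WT libraries. Wdr74 works in the release of early factors from the pre-60S particle. KO held 41.7% of the WT mean of Wdr74 and 32.3% of that of Nop16, with no overlap in either.

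The large-subunit factors that kept most of their WT level were Rrp1, Nip7 (53.9%) and Noc2l (51.99%). Rrp1 had 102, 98.2 and 102 FPKM in KO and 185, 184 and 178 FPKM in WT libraries, and its paralogue Rrp1b had 7.10 ± 0.717 FPKM in KO and 13.9 ± 0.547 in WT (SD, n = 3 each). Rrp1 stood at 55.3% and Rrp1b at 51.1% of WT, although Rrp1 is by far the more abundant in both genotypes. Noc2l, which travels with pre-60S particles from the nucleolus to the nucleoplasm, had 8.40, 7.83 and 8.03 FPKM in KO and 16.4, 15.2 and 15.1 FPKM in WT libraries. It shares 20.9% of its exonic bases with Samd11 on the opposite strand and is uncertain. Noc3l, a relative of Noc2l, had 0.491, 0.265 and 0.350 FPKM in KO and 1.31, 1.19 and 1.37 FPKM in WT libraries, without overlap. It was not tested because its mean lay under 1 FPKM.

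Of the remaining large-subunit factors, Nop2 (a methyltransferase of 28S rRNA), Grwd1 (a chaperone of a ribosomal protein), Gnl2 and Gnl3 (nucleolar GTPases), Mrto4, Rrs1, Brix1, Ebna1bp2 and Nip7 kept between 26.4% (Grwd1) and 53.9% (Nip7) of their WT level. For Gnl3 (nucleostemin), KO held 18.1 ± 0.543 FPKM and WT 60.0 ± 2.24 (SD, n = 3 each).

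**Figure D3:**
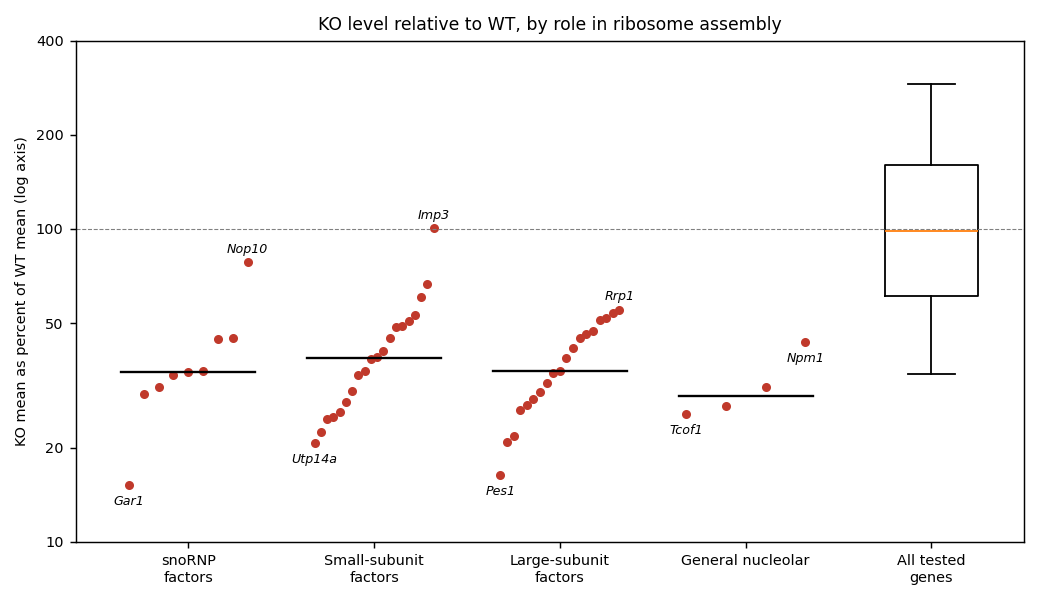
KO mean as a percent of the WT mean, on a log axis, for the members of each role (points, with the median as a line), beside the box of all 9108 tested genes (median and quartiles, whiskers at the 10th and 90th percentiles). Role medians lie at 34.9, 38.7, 35.1 and 29.2%, the median of all tested genes is at 98.3%, and Imp3 is the member at 101%.

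The size of the fall was related only loosely to level and length. Across the 52 members, Spearman's rho between the KO share of WT and the WT level was 0.25, and that with exonic length was -0.19. These are descriptions over genes that share the same libraries. The WT level is also the divisor of the KO share, so the rho with level is not between separate measures. Across all tested genes, rho with the WT level was -0.27.

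Promoter sequence was compared because MYC binds the E-box CACGTG, and Myc RNA was itself lower (18.9 to 19.4 FPKM in KO and 36.8 to 37.7 FPKM in WT libraries, log2 change -0.93). RefSeq promoter windows of GRCm38.p6, 250 bases before to 50 after each gene's start, were matched by symbol for 45 of the 52 members. CACGTG, which reads the same on both strands, occurred in the windows of 10 members (22.2%), against 12.5% of tested genes with a window and 7.15% of all windows. Of these 10 sites, 8 began within 50 bases of the RefSeq start, against 42.4% of 953 sites in the windows of tested genes. The stretches around 6 of them are shown for members whose values are given above or that span the range of change, written 5′ to 3′ on the gene's strand in lower case with the E-box in capitals.
Pes1, chr11:3963965-3963994, plus strand: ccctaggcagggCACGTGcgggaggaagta
Wdr43, chr17:71616220-71616249, plus strand: cgcccgggcgaaCACGTGgctgccgcggag
Ltv1, chr10:13193092-13193121, minus strand: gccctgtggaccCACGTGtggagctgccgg
Nop2, chr6:125131811-125131840, plus strand: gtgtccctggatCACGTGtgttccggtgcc
Utp18, chr11:93885769-93885798, minus strand: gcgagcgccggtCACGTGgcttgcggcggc
Imp4, chr1:34439696-34439725, plus strand: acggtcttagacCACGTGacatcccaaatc
The E-box begins at base 3 of the transcribed side in Pes1, base 18 in Wdr43 and base 29 in Ltv1, and 20, 60 and 121 bases before the start in Utp18, Nop2 and Imp4. These distances are from the RefSeq start and depend on the annotation. In GENCODE M21, for example, Wdr43 begins further upstream, at chr17:71615895. The other members with a site were Grwd1, Mybbp1a, Tsr1 and Utp20.

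The median KO share of WT was 29.3% for the 10 members with an E-box and 35.0% for the 35 without, so genes of both kinds fell. Of the 794 tested genes with an E-box, 49.3% were lower, against 40.4% of all 9108 tested genes. Only 6358 tested genes had a window, and the share lower among these is not given here, so the sets are unlike. The ETS-type motif CCGGAAG, searched on both strands, occurred in 18 of the 45 members, a share of 40%, and in 24.1% of tested genes. Of the tested genes with this motif, 47.2% were lower, a share close to that of the E-box genes. CCAAT occurred in 16 members (35.6%, against 43.6% of tested genes) and GGGCGG in 31 (68.9%, against 69.8%). The longer NRF1 motif was found in 0 of the members' windows and in 2.74% of tested genes. A match is a run of letters in these windows and does not show that a factor binds there. The part of MYC in the fall of the members was not tested.

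Several members also carry annotated snoRNA genes inside their gene bodies, on the same strand, and so may supply guide RNAs as well as proteins. In the GENCODE M21 annotation this held for 8 of the 52 members (15.4%), with 23 snoRNA genes, against 2.04% of tested protein-coding genes. Nop56 held 5, Nop58 held 4, and Ncl, Gnl3 and Wdr43 held 3 each, among them Snord57 and Snord110 in Nop56 and Snord82 in Ncl. Tsr1 and Ppan held 2 each and Dkc1 held 1. All 8 were lower in KO, with a median log2 change of -1.58. Of the 162 tested protein-coding genes with such a snoRNA gene, the members included, 64.8% were lower, with a median of -0.51. The snoRNAs themselves were not analysed here.

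The rest of the pathway was read from lists of 104 other biogenesis factors, 101 of them in the table. Of the 95 tested, 88 were lower in KO, 4 were higher and 3 did not pass, with a median log2 change of -1.06 (background 40.4% lower and 38.0% higher). Among other small-subunit factors, 26 of 27 fell, with the processome protein Cirh1a (Utp4) at -2.09 and Lyar at -2.00, and Dcaf13 (-0.20) fell least. Among other large-subunit factors, 31 of 32 fell, with Rrp8, which modifies 28S rRNA, at -3.22 and Rpf2 at -2.24, whereas Gltscr2 (-0.14) fell least. Rrp8 had 1.70, 1.68 and 1.76 FPKM in KO and 24.2, 23.3 and 25.5 FPKM in WT libraries, a deeper fall than that of any member. Mdn1 and Urb1, large-subunit factors not tested because of their low level, were listed at 0 in every KO library. In WT they had 0.850 ± 0.0722 and 0.670 ± 0.280 FPKM (SD, n = 3). Of other snoRNP factors, 7 of 10 fell, Ruvbl1 (an ATPase of snoRNP assembly) by 2.01 and Nufip1 by 1.81, and Tgs1 (-0.01) and Coil did not pass. Of the RNA helicases of ribosome assembly, 11 of 13 fell, and Ddx54 (0.10) did not pass. The lowest log2 changes were -2.05 for Ddx10 and -2.03 for Ddx56, at 6.83% and 24.1% of the WT mean. All 13 tested genes of the nuclear exosome, which trims rRNA precursors, fell, between -1.49 for C1d and -0.50 for Exosc4, with Exosc1 at -1.35 and Exosc7 at -0.58.

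The 4 higher genes were Pih1d1 (log2 change 0.73), part of a chaperone complex of snoRNP assembly, Dhx37 (0.23), Tsr3 (0.19) and Tex10 (0.17). With libraries rescaled to equal sums, Tsr3 and Tex10 were lower, Dhx37 did not pass and Pih1d1 stayed higher.

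**Figure D4:**
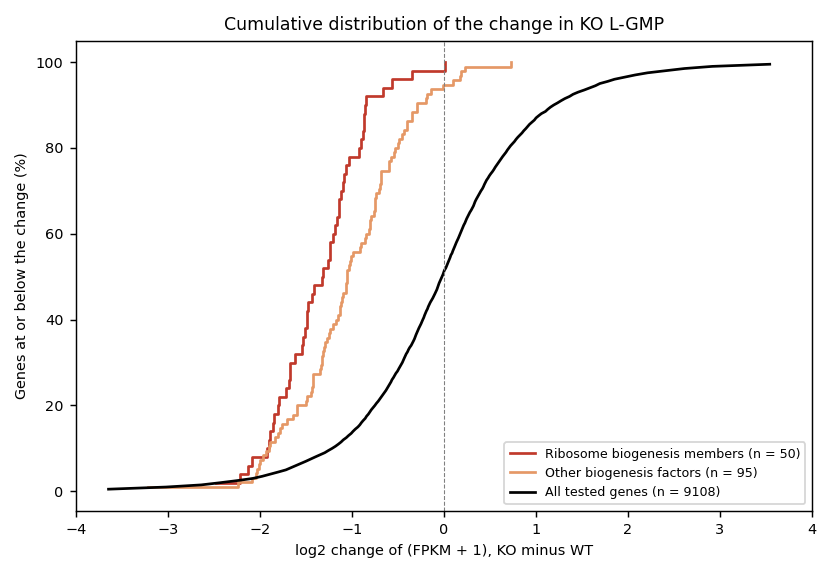
Percent of genes at or below a given log2 change of (FPKM + 1), KO minus WT, for the 50 tested members, the 95 tested other biogenesis factors and all 9108 tested genes. Both biogenesis curves lie left of the curve of all genes, with medians of -1.32 and -1.06 against -0.02.

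Upstream, 12 of 14 genes of the RNA polymerase I machinery were lower (median -0.72), led by the subunits Cd3eap (-1.69) and Polr1e (-1.68). As background for this count and that of the MYC network, 40.4% of all tested genes were lower and 38.0% higher. The initiation factors Rrn3 (10.2 ± 0.255 FPKM in KO and 9.65 ± 0.377 in WT) and Taf1b (4.92 ± 0.834 in KO and 5.88 ± 0.136 in WT) did not pass, and both were lower after rescaling to equal sums. In the MYC network, 8 of 12 genes were tested. Myc fell, and the other 7 were higher, among them Mxd3 (2.82), Mxd1 (1.54) and Mxd4 (1.01), which compete with MYC for MAX, and Max (0.35) itself. Mnt, which competes for MAX as well, was not tested because of its low level and had 0.0875 ± 0.0337 FPKM in KO and 0.872 ± 0.0913 in WT (SD, n = 3 each), from 15 and 179 reads. After rescaling to equal sums, Mlx, Mxi1 and Max did not pass.

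Markers of mature and other blood cells moved with genotype in the same libraries. The 10 neutrophil markers summed to 71422 to 72818 FPKM in KO libraries and 317 to 332 in WT libraries, with 7 of 7 tested members higher. The 10 markers of basophils, mast cells and eosinophils summed to 580.1 to 610.4 FPKM in KO and 30.1 to 36.2 in WT, with 8 of 8 higher and 5 of the 10 listed at 0 in every WT library. The 10 erythroid markers summed to 41.8 to 45.4 FPKM in KO and 12.4 to 15.2 in WT, with 4 of 4 tested members higher and Rhag at 0 in all 6 libraries. The 8 T cell markers summed to 0.757 to 1.23 FPKM in KO and 2.20 to 2.29 in WT, and Cd3e, Cd3g, Cd8a and Trac were at 0 throughout. Only Lck was tested, and it was lower, with 0.588 ± 0.124 FPKM in KO and 2.15 ± 0.0332 in WT (SD, n = 3 each). Of the untested ones, Cd3d had a higher mean in KO (0.358 against 0.0179 FPKM), and Cd4 and Il7r had lower ones. The 7 B cell markers summed to 56.0 to 58.2 FPKM in KO and 83.6 to 91.2 in WT, with 1 of 2 tested higher, and Pax5 was at 0 throughout. The lower one was Cd79b, with 2.48 ± 0.557 FPKM in KO and 54.6 ± 2.73 in WT. The higher one was Ighm, with 54.4 ± 0.504 in KO and 33.7 ± 1.84 in WT (SD, n = 3 each). The untested Cd79a, Ebf1 and Ms4a1 had higher means in KO, so the markers did not move together. The part of these marker differences in the fall of the ribosome biogenesis genes was not tested.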

How the data were processed

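RNA-seq libraries of sorted L-GMP cells, 3 KO and 3 WT, were grouped by title. Per the labels' protocols, Smart-seq2 cDNA went into Nextera XT libraries, without molecular identifiers named. Per the submitters' processing notes, CASAVA, bcl2fastq, STAR 2.5.3a, mm10 and DESeq2 1.18.1 were used; the role of each, the counter, the annotation and the strand setting are unknown. The authors deposited FPKM for 47643 genes.

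The 9108 genes that averaged 1 FPKM or more were fitted with limma 3.58.1 (R 4.3.3) on log2(FPKM + 1), with genotype as the only term, a mean-variance trend, two-sided tests and Benjamini-Hochberg adjustment over all tested genes at 0.05. Whole reads were recovered from FPKM times length: 16481 of 21132 genes above 0 were whole within 0.001 at the GENCODE M21 exonic length, and 4650 at the smallest length that gave whole reads, so that their read numbers are minima (18 of the 52 members). Depth limits the weakest members most, such as Noc3l with 55 reads in KO and 229 in WT. Reads served for depth and for 1 alternative. The fit was also run on simulated data with few changed genes, unlike these libraries, so that run says little about the calls here. Replicates of a genotype differed by more than counting error (chi-square per gene 2.44 to 3.11), which takes amplified reads as independent and leaves out amplification noise. Python 3.11.15, pandas 2.3.3, scipy 1.17.1 and matplotlib 3.10.9 were used.

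The members, lists, complexes and motifs were chosen with earlier results of these data known. Values per library are given for the general nucleolar proteins, for the most abundant and the most and least changed members of each role, for members not called lower, and, added after their values were seen, for further subunits of the complexes compared. Of the other lists, the most and least changed genes and the higher ones are named. Alternatives were other pseudocounts, minimum levels, scalings, a replicate block, no trend, limma-voom and leaving out each library.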

Additional observations from a re-analysis of the deposited data

How the results depend on the processing

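Over 14 alternatives, 0 members were called higher, and the members called lower numbered 45 to 51, of 46 to 52 tested. The 45 came with a minimum mean of 5 FPKM, where 46 were tested, and the 51 without a minimum, where Noc3l (-0.75) and Utp20 (-0.46) were called lower as well. The median log2 change of the members ranged from -1.76 with libraries rescaled to equal FPKM sums to -1.29 without a minimum. The log2 change of Imp3 was negative with that rescaling (-0.45), with quantile normalization (-0.02) and without KO replicate 3 (-0.02) or WT replicate 3 (-0.00), and it was -0.02 to 0.03 over the fits with 1 library left out. Over all tested genes, the count called lower was 5769 without a minimum and 2383 at a minimum of 5 FPKM, because more or fewer genes were tested, and the count called higher was 2072 at 5 FPKM and 2017 after rescaling (5500 lower). The summed FPKM of the members, KO over WT, was 0.327 after rescaling and 0.449 to 0.456 with 1 library left out, against 0.453. With the replicate number as a block, 49 members were lower and 0 higher, and 3420 genes were higher and 3620 lower. Deviations of same-numbered libraries correlated at -0.017 to 0.009, so no pairing by number was seen. With so few libraries, whose deviations are largely noise, this cannot exclude one. The block result is given only here.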

Other observations

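Some of the members start next to another gene on the opposite strand. In the GENCODE M21 annotation, 17 of the 52 members had a protein-coding neighbour on the opposite strand, pointing away, whose start lay within 1000 bases. The share of all genes with such a neighbour is not given here, so this is not a trait shown for the members. Of the 13 neighbours tested, 6 were lower in KO, 4 were higher and 3 did not pass (limma, adjusted p under 0.05 over all tested genes), with a median log2 change of -0.17. These shares are near those over all tested genes, of which 40.4% were lower and 38.0% higher. With libraries rescaled to equal sums, 9 neighbours were lower, 2 were higher and 2 did not pass. Higd2a, a mitochondrial assembly factor that starts 117 bases from Nop16, had 304 ± 3.78 FPKM in KO and 199 ± 1.87 in WT (log2 change 0.61), beside the fall of Nop16 to 32.3% of WT. Ubr4, a ubiquitin ligase that starts 33 bases from Mrto4, had 3.17 ± 0.177 FPKM in KO and 1.65 ± 0.125 in WT (0.65). Both were also higher with libraries rescaled to equal sums, whereas of the other 2 higher neighbours, Hsf1 (beside Bop1) did not pass and Cog8 (beside Nip7) was lower. Pbrm1, a chromatin remodelling subunit that starts 14 bases from Gnl3, had 3.40 ± 0.445 FPKM in KO and 3.78 ± 0.233 in WT and did not pass (it was lower after rescaling, at -0.49), while Gnl3 stood at 30.2% of WT. Other pairs fell on both sides. Phb2 (prohibitin 2), 158 bases from Emg1, had 55.9 ± 2.48 FPKM in KO and 167 ± 1.77 in WT (-1.57), and the helicase gene Ddx51, 34 bases from Noc4l, had 4.46 ± 0.389 FPKM in KO and 10.9 ± 0.210 in WT (-1.13). All values are mean ± SD of 3 libraries per genotype. Which gene a read near a shared start was assigned to could not be checked, since no source used here says whether reads were counted by strand.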
